A study of Rhagoletis pomonella with 50 samples.

Results

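The central nervous system (CNS) of hawthorn-reared pupae of the fly Rhagoletis pomonella was compared after 5 months in the cold with that after 3 months. All libraries labelled hawthorn and 5 months, or hawthorn and 3 months, were taken. They gave 5 libraries per month and 10 of the 50 in the study, which covers hawthorn and apple pupae at 2, 3, 4, 5 and 6 months of diapause. Each library was made from a pool of 10 CNS. Larvae came out of infested fruit from 1 locality, were kept for 10 days at about 24 °C with 14 h of light and 10 h of dark, and then went to 3.5 °C and 95% relative humidity as pupae. Both groups shared host, locality, rearing, temperature and tissue and differed by label in time in the cold alone. No treatment, transgene or sex is given, and whether pools of the same number came from the same day is not stated. Nothing in the labels says more of the pools, so p-values measure the spread between pools. For calls on counts that spread was estimated over all 50 libraries of the study and not from these 10 alone.

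Rhagoletis pomonella passes the winter as a pupa in diapause, a hormonally kept arrest of development with low metabolism. Hawthorn is the ancestral host in North America, and the population on apple is a derived one that emerges as adults earlier in the season. In flies, chilling over the winter precedes the end of diapause, and the CNS holds the neurosecretory cells that govern the ecdysone release with which adult development resumes. How far the hawthorn CNS changes over the middle to late part of the cold period is the question behind the 5 against 3 month comparison.

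The files listed 29399 features, of which 20193 had a count of at least 1 in any of the 10 libraries. Of the 29399, 13862 passed a filter on low counts over all 50 libraries and were tested, and they held 99.9% of all counts. The identifiers are plain numbers with a common prefix, which the files do not pair with gene names, and 0 of the 29399 identifiers matched the gene table of R. pomonella. A match was unlikely from the outset, since counts were made on the genome of the related R. zephyria. No gene table of that species was at hand, so no feature is given a function or a chromosome here. For the same reason the neuronal, glial, fat body, muscle and haemocyte markers had 0 members matched, and the labelled tissue could not be checked. In a dissected tissue, fewer cells of a type and less RNA per cell cannot be told apart in any value given here.

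The libraries of the 2 months differed in depth and in sequencing lane. Totals of expected counts (the estimated reads per feature that the RSEM program gives) lay between 11979314 and 14551985 at 5 months and between 15564300 and 21622343 at 3 months, without overlap. The mean total was 13243262 ± 1025131 at 5 months and 18422571 ± 2593547 at 3 months (SD, n = 5 each, exact two-sided permutation p = 0.00794, the smallest that 5 against 5 allows, 0.0317 adjusted over 4 library measures). Libraries with equal totals, made by thinning to the lowest of the 10, gave 347 called features in place of 345, of which 309 were the same. In lane 3 were 4 of the 5-month libraries, and in lane 1 were 3 of the 3-month libraries. Lane 2 alone held both months, with 1 library of each. Each month also had its own first index sequence, so that index and month cannot be told apart.

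A pair of libraries stood apart from the others of their month. In a principal component analysis of the 10 libraries, the first component (24.1% of the variance) had scores of 33.4, 15.5, 46.0, 31.5 and -10.1 at 5 months and of -37.2, -34.6, -26.1, -29.9 and 11.4 at 3 months. Both exceptions were replicate 5 of their month. Replicate 5 of 5 months was also alone on the second component (18.3%, score 74.5), and replicate 5 of 3 months on the third (13.5%, score -63.3). Without both, 301 features were called. Within each month replicates were alike, with Spearman correlations of 0.948 to 0.975 between the 5-month libraries and of 0.955 to 0.976 between the 3-month libraries. Such correlations are across features and describe the libraries. The median SD of a feature's log2 CPM (counts per 1000000 of the scaled library total) was 0.255 at 5 months and 0.244 at 3 months, over 9704 well measured features.

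At an adjusted p under 0.05 in edgeR's quasi-likelihood test, 345 of the 13862 features (2.49%) differed between 5 and 3 months in hawthorn pupae. Higher at 5 months were 222 features (1.6%) and lower were 123 (0.887%), so that 64.3% of the called features were higher. The changes were mostly moderate. Called higher features had a median log2 fold change of 0.76, a 1.70-fold difference, with quartiles of 0.61 and 0.97. Called lower features had a median of -0.77 with quartiles of -1.17 and -0.55. The standard error of a called feature's log2 fold change had a median of 0.187 among the higher and 0.188 among the lower. A difference of at least 2-fold was fitted for 50 of the higher and 40 of the lower features.

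**Figure D1:**
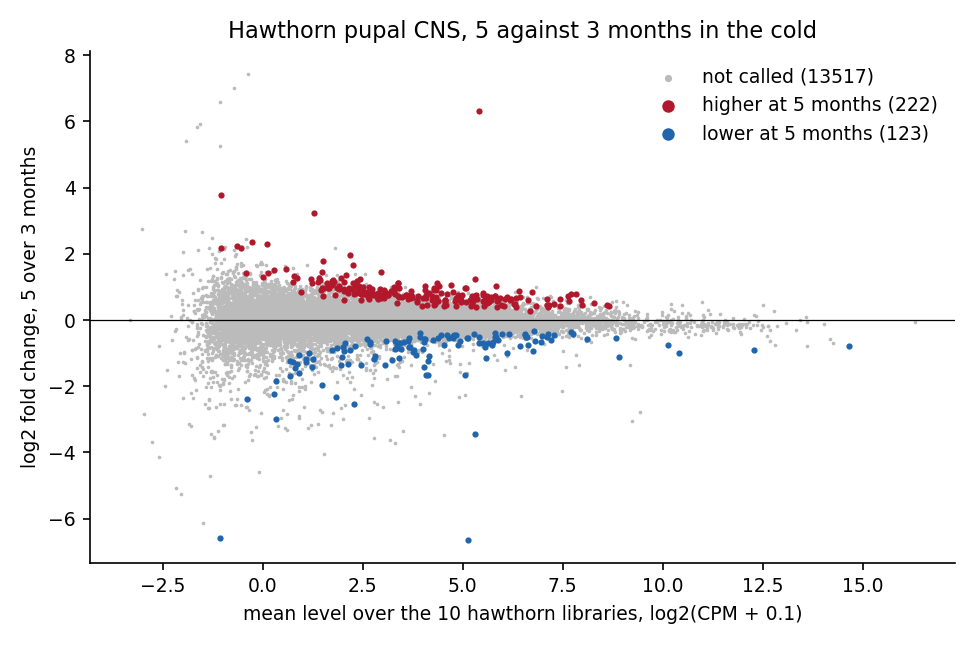
Each point is 1 of the 13862 features tested in hawthorn pupae, with its mean level over the 10 libraries as log2(CPM + 0.1) on the horizontal axis and its log2 fold change, 5 over 3 months, on the vertical axis. The 222 features called higher (red) and the 123 called lower (blue) mostly lie between 0.5 and 1.5 log2 units from 0, and the widest grey scatter is at low levels.

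The groups did not overlap in 177 of the 222 higher features, where every 5-month library lay above every 3-month library. They did not overlap in 91 of the 123 lower features. Over all tested features, 580 had all 5-month libraries above and 370 had all of them below. Beyond the called features, 2451 of the 13862 (17.7%) had an unadjusted p under 0.05 in edgeR's test, called ones included, of which 1300 were higher and 1151 lower. The median log2 fold change over all features was -0.01, which the scaling of libraries centres near 0, and 3941 features (28.4%) were fitted within 1.1-fold. Of 763 features with a fitted difference of at least 2-fold, 673 were not called, and the median level of those 673 was 0.806 CPM.

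Features with more counts were called more often. In 5 equal groups of the tested features ordered by mean CPM, from the lowest to the highest, 0.397%, 1.48%, 2.96%, 3.61% and 4.00% were called. No count in any 3-month library was found for 8 features, of which 0 were called. They were present in at most 4 of the 5-month libraries, with a highest mean of 1.34 CPM. No count in any 5-month library was likewise found for 8 features, of which 1 was called lower, with a mean of 0.762 CPM at 3 months. The lowest mean of a tested feature over the 10 libraries was 0 CPM, so these sets share at least 1 feature. No tested feature was thus without counts in one month and abundant in the other at this depth.

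Of 16 called features with a fitted difference of at least 4-fold, 8 had groups that did not overlap and 5 had a mean log2 CPM of at least 1. The largest change in the lower direction, a log2 fold change of -6.63, was called at an adjusted p of 0.0373 in edgeR's test. That feature had 1.28, 1.46, 0.233, 0.0742 and 0.379 CPM at 5 months, against 346, 1.38, 0.576, 0.216 and 0 CPM at 3 months. Replicate 1 of 3 months alone set it apart, and the groups overlapped. The largest change in the higher direction, 6.30, belonged to a feature with 189, 0.837, 225, 1.26 and 1.06 CPM at 5 months, against 0.342, 0.591, 0.748, 1.03 and 2.66 CPM at 3 months. Replicates 1 and 3 of 5 months were high and the others overlapped with 3 months.

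Among features with at least a moderate level and no overlap between the months, gene16789 had the largest rise. It had 4.08, 8.44, 9.62, 6.53 and 6.52 CPM at 5 months, against 1.37, 1.08, 2.82, 1.62 and 2.03 CPM at 3 months. Each 5-month library was above the highest 3-month library. The mean was 7.04 ± 2.11 CPM at 5 months and 1.79 ± 0.676 CPM at 3 months (SD, n = 5 each). Its log2 fold change was 1.98 ± 0.34 (SE, adjusted p = 0.000622, edgeR). Its transcript of 3742 bp is the only one listed for it.

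The next was gene15716, with 2 transcripts and an average length of 2293 bp. It had 3.78, 4.74, 4.34, 3.56 and 4.93 CPM at 5 months, against 0.752, 0.641, 1.21, 1.03 and 2.59 CPM at 3 months. Replicate 5 of 3 months came closest to the 5-month libraries. The log2 fold change was 1.79 ± 0.36 (SE, adjusted p = 0.00334, edgeR). Both features kept their call in each of the 10 fits that left out 1 library.

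The largest fall among such features was that of gene13519, whose 2 transcripts average 495 bp. It had 4.61, 4.67, 2.33, 3.11 and 19.1 CPM at 5 months, against 34.7, 159, 79.4, 69.8 and 20.4 CPM at 3 months. The highest library of 5 months and the lowest of 3 months lay next to each other, and both were replicate 5. The log2 fold change was -3.43 ± 0.98 (SE, adjusted p = 0.0477, edgeR). A second feature that fell, gene25894 of 1028 bp, had 0.982, 0.837, 1.55, 0 and 2.12 CPM at 5 months, against 4.31, 5.57, 2.94, 5.84 and 2.94 CPM at 3 months. Its log2 fold change was -1.98 ± 0.57 (SE, adjusted p = 0.0477, edgeR). Each of these calls was lost in 8 of the 10 fits that left out 1 library.

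Across the whole hawthorn series, gene13519 and gene25894 were variable within months. At 4 months gene13519 stood at 152 and 140 CPM in replicates 2 and 4 and between 3.81 and 14.9 CPM in the others. In the same 2 libraries gene25894 stood at 9.70 and 7.14 CPM, against 0.593 to 2.30 CPM in the others. At 2 months the same held for replicates 3 and 5, where gene13519 had 136 and 194 CPM and gene25894 had 5.34 and 6.79 CPM. At 5 months no pool was at such a level for either feature.

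**Figure D2:**
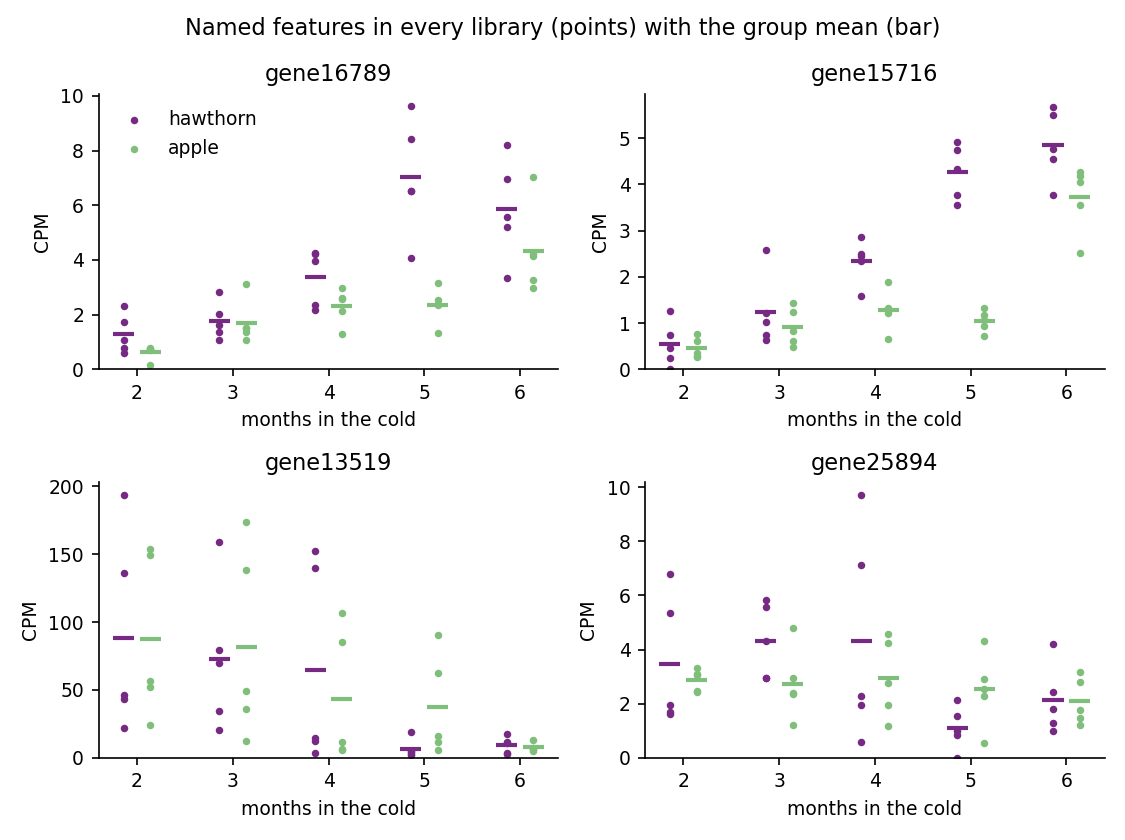
CPM of 4 features in every library of hawthorn (purple) and apple (green) pupae against months in the cold, with points for libraries and bars for group means of 5. In hawthorn, gene16789 and gene15716 are higher in every library of 5 months than in any of 3 months. For gene13519 and gene25894 every library of 5 months is lower than any of 3 months, and libraries of 2 and 4 months differ widely.

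The called lower set was dominated in counts by 1 feature. It had 15992, 21305, 17816, 19852 and 19329 CPM at 5 months, against 21768, 34837, 33080, 41426 and 30164 CPM at 3 months (log2 fold change -0.77, adjusted p = 0.0413, edgeR). All 5-month libraries lay below all 3-month libraries. It made up 67.2% of the counts of the lower set at 5 months and 66.7% at 3 months. Without it, the lower set summed to 8502 to 10835 CPM at 5 months and to 14607 to 17856 CPM at 3 months.

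A further 3 called lower features had a mean above 1000 CPM over the 10 libraries. Their means were 3448 ± 788, 917 ± 111 and 841 ± 61.8 CPM at 5 months, against 6460 ± 1181, 1815 ± 200 and 1404 ± 313 CPM at 3 months (SD, n = 5 each). Their log2 fold changes were -0.91, -0.98 and -0.74. No called higher feature reached 1000 CPM. The called higher feature with the most counts averaged 461 ± 20.6 CPM at 5 months and 347 ± 10.6 CPM at 3 months (SD, n = 5 each). Its log2 fold change was 0.41 (adjusted p = 0.0189, edgeR). The higher set as a whole summed to 9259 to 10259 CPM at 5 months, against 5769 to 6993 CPM at 3 months.

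On the scale of TPM, which is per transcript length, the called lower features had a median of 11.4 TPM over the 10 libraries and the called higher features one of 5.03 TPM, beside 3.72 TPM over all tested features. The most abundant features were mostly fitted lower at 5 months. Of the 100 with the highest TPM, 95 had a negative log2 fold change, with a median of -0.17, but 1 was called. With the length slope described below as a term in the fit, 33 were negative and the median was 0.05, so for these 100 the direction flips. Of the top 20, 19 were negative without the term and 12 with it, with medians of -0.21 and -0.14. Of the top 1000, 723 and 558 were negative, with medians of -0.12 and -0.03. The 20 most abundant features together took 246456 to 274659 TPM at 5 months, against 282844 to 308691 TPM at 3 months. The sums of the top 100 overlapped, with 604436 to 667096 TPM at 5 months and 652015 to 666819 TPM at 3 months. In apple pupae 11 of the same 100 were negative from 3 to 5 months.

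Called features also differed in length. Higher features had a median transcript length of 2575 bp, with quartiles of 1785 and 4105 bp, and lower features one of 1701 bp, with quartiles of 1130 and 2808 bp. The median of all tested features was 1649 bp. In 5 equal groups of length from shortest to longest, 11, 15, 43, 64 and 89 features were called higher and 16, 30, 26, 25 and 26 were called lower. More than 1 transcript was listed for 36.0% of the higher, 34.1% of the lower and 27.6% of all tested features.

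The libraries themselves differed with length. The length slope of a library, the slope of its log2 CPM deviation on log2 transcript length, averaged 0.0921 ± 0.0473 at 5 months and 0.0257 ± 0.0560 at 3 months (SD, n = 5 each, exact two-sided permutation p = 0.0873, adjusted over 4 measures 0.116). It lay between 0.0523 and 0.157 at 5 months and between -0.0510 and 0.0900 at 3 months, so that the groups overlapped. The fit with the slope as a term called 540 features, which included 305 of the 345. From the shortest to the longest group the calls were then 48, 56, 65, 63 and 89 higher and 21, 26, 38, 52 and 82 lower. In that fit the ratio of higher to lower calls was largest among the shortest features and smallest among the longest. All 345 features kept their direction. What sets the slope was not tested.

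**Figure D3:**
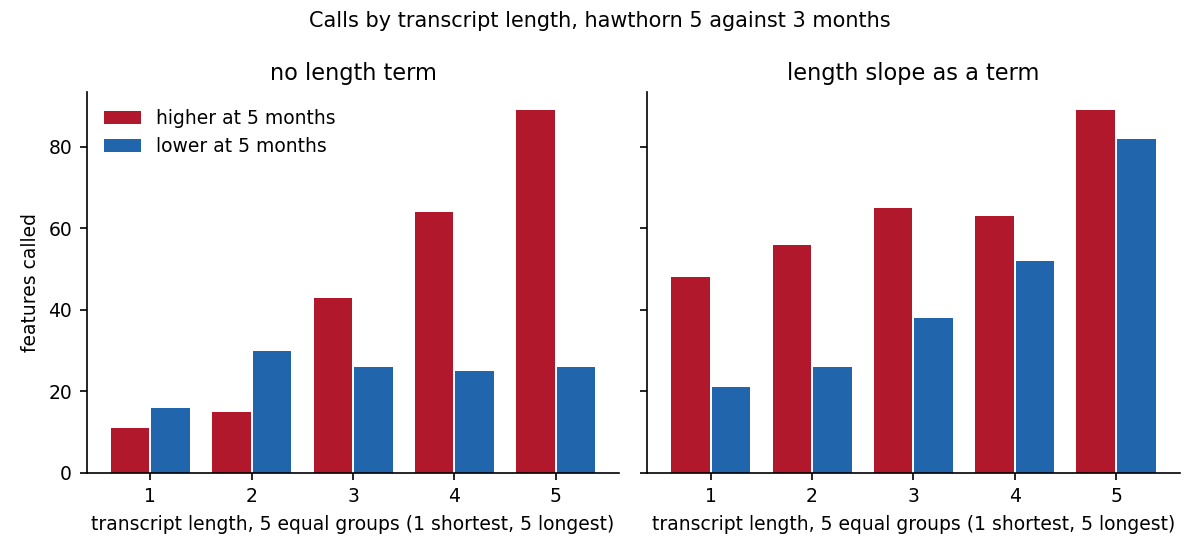
Number of features called higher (red) and lower (blue) at 5 against 3 months in each of 5 equal groups of transcript length, without (left) and with (right) the length slope of each library as a term. Among the longest features 89 were called higher and 26 lower on the left, and 89 higher and 82 lower on the right.

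Average transcript length did not differ detectably. RSEM gives each feature a transcript length averaged over its isoforms by their abundance, which moves when isoforms of unequal length change their shares. A change in shares between isoforms of similar length would not be seen. Of 2930 features with enough counts and a length that varied, 0 (0%) were called by limma between 5 and 3 months. At an unadjusted p under 0.05 there were 142 (4.85%), and the smallest adjusted p was 0.306. The median absolute log2 length ratio was 0.0043 and the largest was 0.43. Of the 345 features called by level, 102 could be tested for length.

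The features called between 5 and 3 months were followed in hawthorn libraries of other months, whose levels are not part of that contrast but which entered the estimate of the spread behind the calls. From 2 to 6 months, 218 of the 222 higher features had a positive log2 fold change (98.2%, against 48.5% of all tested features). Of these, 186 were called higher, a share of 83.8% beside 12.1% of all tested features, and 0 were called lower. Their median log2 fold change was 0.94. Of the 123 lower features, 117 were negative from 2 to 6 months (95.1%, against 51.5% of all), 98 were called lower beside 8.73% of all, and the median was -0.80. The direction over the longer span was thus that between 3 and 5 months in 335 of the 345 features. A fit of only the libraries of 5 and 3 months called 636 features, 391 higher and 245 lower. Of these, 384 of the higher were positive and 236 of the lower were negative from 2 to 6 months. The lower feature with the most counts was an exception, with a log2 fold change of 0.21 from 2 to 6 months (adjusted p = 0.537, edgeR).

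The median deviation of the 222 higher features from their mean over all 50 libraries lay between -0.46 and -0.35 log2 units at 2 months and between 0.36 and 0.67 at 6 months. That of the 123 lower features lay between 0.33 and 0.58 at 2 months and between -0.42 and -0.32 at 6 months. The values at 3 and 5 months chose the features and are drawn for reference. At 4 months, replicates 2 and 4 stood apart, with -0.06 and -0.21 for the higher features where the other 3 libraries had 0.25, 0.04 and 0.08. For the lower features these 2 libraries had -0.13 and 0.08, where each of the other 3 had between -0.25 and -0.24. In those 3 libraries the lower features were thus already nearer to their level at 6 months than to that at 2 months.

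Without those 2 libraries, the higher features at 4 months had a median position 51.3% of the way from their 3-month to their 5-month mean, and the lower features one of 77.9%. With all 5 libraries the positions were 34.0% and 66.6%. The 3- and 5-month means chose the features, so a position between them is a description and supports nothing. The steps on either side of 4 months share no library with 3 and 5 months. From 2 to 4 months, without replicates 2 and 4, the higher features had a median log2 fold change of 0.57, with 97 called higher (43.7%, beside 2.24% of all). The lower features had one of -0.64, with 67 called lower (54.5%, beside 1.87% of all).

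From 4 to 6 months, without the same libraries, the medians were 0.41 for the higher features and -0.14 for the lower features. Called were 31 of the higher features as higher (beside 1.26% of all) and 3 of the lower features as lower (beside 0.743% of all). With all 5 libraries of 4 months, the higher features had a median of 0.47 from 2 to 4 months, with 91 called higher (beside 6.42% of all), and of 0.52 from 4 to 6 months, with 122 called higher (beside 10.3%). The lower features had medians of -0.60 and -0.25, with 71 and 26 called lower (beside 5.93% and 11.7%). For the higher features, which step was the larger therefore turns with replicates 2 and 4, while for the lower features the first step had the larger median either way. The steps share the 4-month libraries, and the difference between them was not tested.

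**Figure D4:**
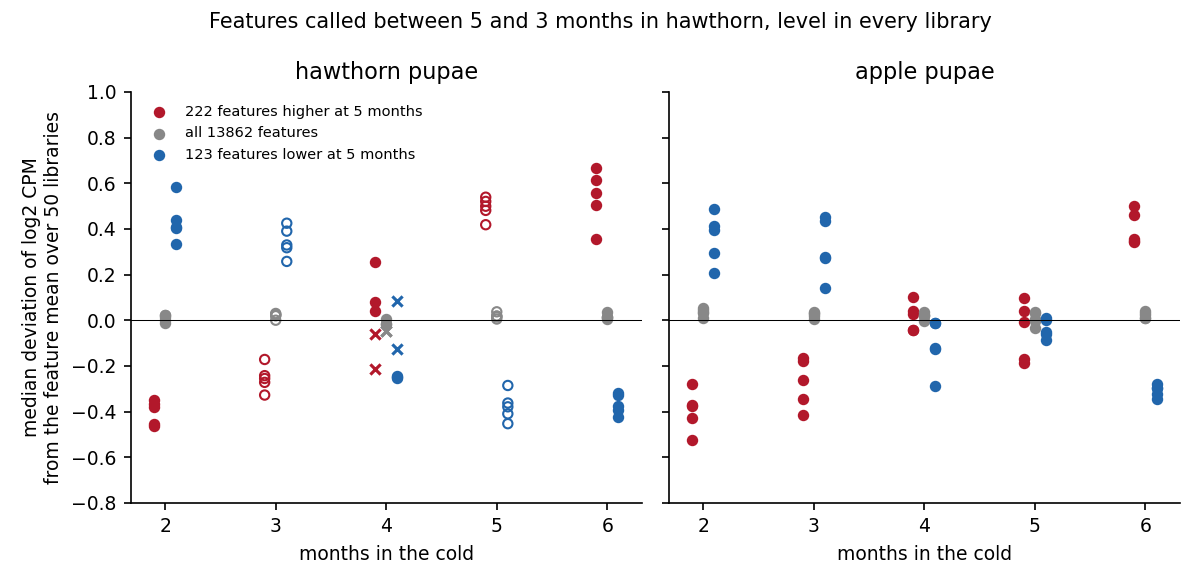
Median deviation of log2 CPM from the feature mean over 50 libraries in every hawthorn (left) and apple (right) library against months in the cold, for the 222 features higher (red) and 123 lower (blue) at 5 months in hawthorn and for all 13862 features (grey). Open circles are the libraries that chose the features and crosses are replicates 2 and 4 of 4 months; in hawthorn both sets have crossed 0 by 5 months, and in apple both lie near 0 at 5 months and apart at 6 months.

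The number of calls fell when lane was taken into account. With lane as a term, 16 features (0.115%) were called, 13 higher and 3 lower, and 15 of them were among the 345. All 345 features kept their direction, but they were chosen in these same libraries, so this is not a test. Called among them were 13 of the higher and 2 of the lower. The median log2 fold change was 0.83 for the higher features and -0.71 for the lower, beside 0.76 and -0.77 without the term. The median SE of the 345 was 0.264 in place of 0.188. Without the 2 libraries of lane 2, 69 features were called from the other 8 (0.498%). The lane 2 pair, which had no part in that choice, had the same direction in 66 of the 69, beside 66.8% of all tested features.

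Lanes were also shared elsewhere in the study. From 2 to 6 months within lane 7, with 3 libraries of 6 months and 2 of 2 months, 333 of the 345 features had the direction seen between 3 and 5 months. The higher features had a median log2 difference of 0.93 there and the lower features one of -0.88, beside -0.02 for all tested features. The count of 345 also moved with libraries outside the comparison. Without replicates 2 and 4 of hawthorn pupae at 4 months, 913 features (6.59%) were called, 600 higher (4.33%) and 313 lower (2.26%), and all 345 were among them. Of these, 570 of the higher were positive from 2 to 6 months and 300 of the lower were negative.

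In apple pupae, from libraries of which none was shared, the same months differed in 270 features (1.95%), 101 higher (0.729%) and 169 lower (1.22%). The 222 features higher in hawthorn had a median apple log2 fold change of 0.27, and 175 were positive (78.8%, against 49.5% of all). The 123 features lower in hawthorn had one of -0.38, and 108 were negative (87.8%, against 50.5% of all). Called in both hosts were 43 features, 12.5% of those called in hawthorn and 15.9% of those called in apple, and 42 of them had the same direction. Within lane 5, with 3 apple libraries of 5 months and 4 of 3 months, 280 of the 345 features had the hawthorn direction, beside 283 in all apple libraries.

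The hawthorn sets thus moved the same way in apple, by a smaller median. The higher set summed to 6338 to 7397 CPM in apple at 5 months, against 5323 to 6279 CPM in apple at 3 months, where hawthorn had the sums given above. Only features chosen in hawthorn are compared here, so a smaller median in the other host is part of the choice and is not a test. From 2 to 6 months apple pupae had a median log2 fold change of 0.82 in the higher features, of which 172 were called higher (77.5%, beside 9.37% of all). The lower features had a median of -0.66, and 85 were called lower (69.1%, beside 6.24% of all).

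**Figure D5:**
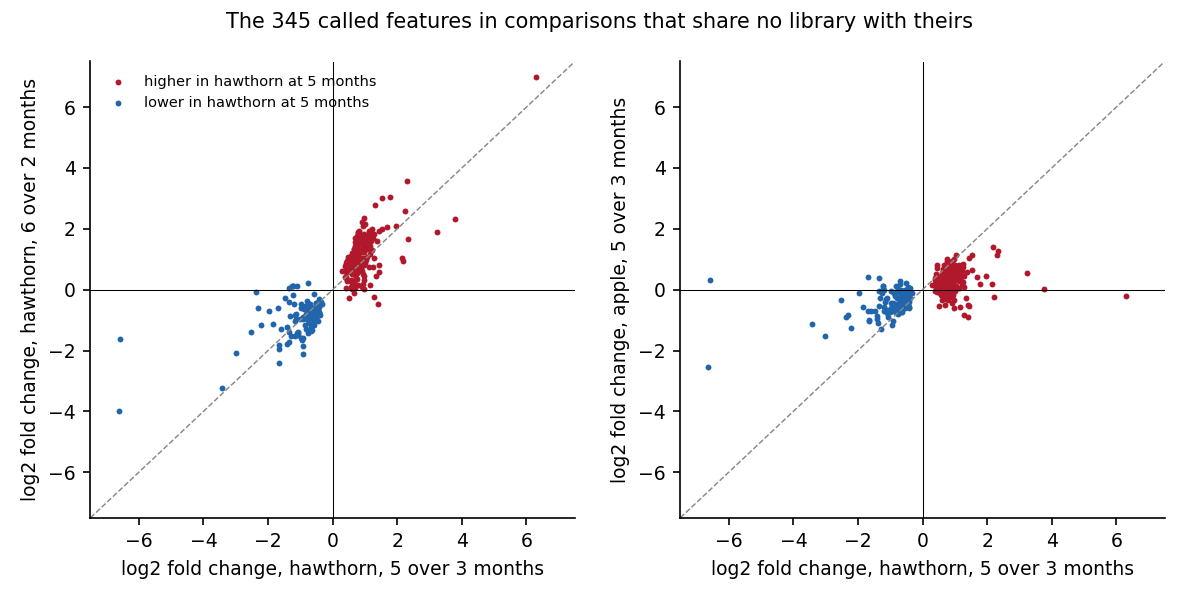
Log2 fold change of the 345 called features in hawthorn, 5 over 3 months (horizontal), against that in hawthorn, 6 over 2 months (left) and in apple, 5 over 3 months (right), with equality as a dashed line. Red features were higher and blue ones lower in hawthorn at 5 months; 335 of 345 points on the left and 283 of 345 on the right lie in the quadrants of the same direction.

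The difference between the hosts in the 3 to 5 month change was itself tested. It was called for 27 features (0.195%), and in 26 of them (0.188%) the hawthorn change was the more positive, beside 1 (0.00721%) where it was the more negative. In other fits the split varied. More positive were 158 of 205 without replicates 2 and 4 of hawthorn pupae at 4 months and 86 of 106 with DESeq2. With length slope as a term 76 of 82 were more positive, and with only the groups of the contrast 30 of 34. At an unadjusted p under 0.05 there were 1636. All 26 had a positive log2 fold change in hawthorn and 25 had a negative one in apple, with medians of 0.63 in hawthorn and -0.67 in apple. The 26 were chosen for this difference, so opposite signs in the hosts are partly built into the choice and are not a test. Of the 26, 10 were called higher in hawthorn (beside 1.6% of all) and 13 were called lower in apple (beside 1.22% of all). The choice favours these calls as well. Their log2 differences between the hosts ran between 0.67 and 2.39. From 2 to 6 months the 26 had a median log2 fold change of -0.04 in hawthorn and of -0.11 in apple.

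Among features with at least a moderate level and hawthorn groups that did not overlap, the largest such difference was that of gene10040, of 3694 bp. In hawthorn it had 7.33, 3.77, 5.12, 5.04 and 5.53 CPM at 5 months, against 3.62, 1.38, 1.90, 1.73 and 2.45 CPM at 3 months. In apple it had 1.97, 2.00, 1.32, 2.10 and 2.60 CPM at 5 months, against 3.64, 3.93, 4.03, 5.06 and 1.31 CPM at 3 months. Every hawthorn library of 5 months was above every one of 3 months, while in apple 4 of the 3-month libraries were above every 5-month library. The log2 fold change was 1.28 in hawthorn (adjusted p = 0.0161) and -0.84 in apple (adjusted p = 0.145), and their difference was 2.12 ± 0.43 (SE, adjusted p = 0.0166, edgeR). From 2 to 6 months gene10040 was called in neither host, with -0.23 in hawthorn and -0.26 in apple (adjusted p = 0.629 and 0.598, edgeR).

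The second was gene6, with 2 transcripts and an average of 3071 bp. In hawthorn it had 5.29, 3.14, 3.33, 3.26 and 4.55 CPM at 5 months, against 1.98, 1.73, 1.21, 1.41 and 0.840 CPM at 3 months. In apple it had 1.68, 2.46, 1.51, 2.02 and 3.08 CPM at 5 months, against 3.98, 1.82, 4.20, 3.25 and 2.21 CPM at 3 months. The hawthorn groups did not overlap and the apple groups did. The difference between the hosts was 1.96 ± 0.39 (SE, adjusted p = 0.0131, edgeR). From 2 to 6 months gene6 was positive in both hosts, with 0.82 in hawthorn and 0.66 in apple (adjusted p = 0.0246 and 0.0747, edgeR). With lane as a term 0 features were called for the host difference (1013 at an unadjusted p under 0.05), and both features had an adjusted p of 0.492 at differences of 2.25 and 2.23. Lanes were shared unevenly among the 4 groups of this test, and the part of lane in the 27 calls cannot be told apart from that of host and month.

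For the 2 features with the largest rise in hawthorn, a difference between the hosts in the change was not called. In apple gene16789 had a log2 fold change of 0.45 (adjusted p = 0.558) and gene15716 one of 0.20 (adjusted p = 0.856). The log2 difference between the hosts was 1.52 for gene16789 and 1.59 for gene15716, with adjusted p of 0.174 and 0.193 in edgeR. Both were higher at 6 than at 2 months in hawthorn, by 2.11 (adjusted p = 1.06e-05) and 3.04 log2 units (adjusted p = 1.08e-07). In hawthorn, gene15716 had 3.77 to 5.68 CPM at 6 months and 3.56 to 4.93 CPM at 5 months, which overlapped. In apple it had 2.52 to 4.28 CPM at 6 months and 0.727 to 1.33 CPM at 5 months, without overlap. Of the 2 named features that fell, gene13519 was lower at 6 than at 2 months in hawthorn (-3.24, adjusted p = 0.0125, edgeR). For gene25894 that change was -0.70 and was not called (adjusted p = 0.385, edgeR). From 3 to 5 months in apple neither was called, with -1.13 for gene13519 and -0.12 for gene25894 (adjusted p = 0.583 and 0.943, edgeR).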

How the data were processed

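RNA of pools of 10 dissected CNS was sequenced from stranded mRNA libraries as 100 bp single-end reads, per the labels' protocols. Reads were cleaned, mapped to the genome of the related R. zephyria with STAR and counted with RSEM, per the submitters' processing notes. Their versions, the build and the gene models: not given in the sources used here. The deposited files hold, per the file headers, expected counts (RSEM's estimated count per feature, which need not be whole) and TPM, both made by the authors, and an abundance-weighted transcript length in bp. Between 13.4% and 20.9% of the values in a library were not whole. RSEM divides reads among near-identical features, so these are uncertain. Lanes and indexes come from the names of the deposited data.

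Expected counts were rounded, which moved no total by more than 0.000438%. Totals lay between 8718271 and 30540959 over the 50 libraries. Features were filtered with edgeR's filterByExpr (minimum count 10, minimum total 15), scaled by edgeR's TMM factors and fitted with edgeR's robust quasi-likelihood model over all 50 libraries with 1 mean per group of host and month. A Benjamini-Hochberg adjusted p under 0.05 over the 13862 features was called. Mean log2 CPM used a prior count of 2. TPM served to order features by level and to describe levels and sums in each month, and was not tested. The deposited lengths were tested with limma on the log2 scale, for features with an expected count of at least 10 in all 10 libraries and a length range over 1 bp. Library measures were tested by exact permutation of 5 against 5 libraries (252 regroupings). Count models used edgeR 4.0.16, the alternative DESeq2 1.42.0 and the length test limma 3.58.1, all in R 4.3.3. Permutations and figures used scipy 1.17.1 and matplotlib 3.10.9 in Python 3.11.15. The fits were checked on simulated data.

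Named features are at most 2 higher and 2 lower per comparison, those with the largest change among called features whose mean log2 CPM was at least 1, with hawthorn groups that do not overlap. No lower feature qualified for the host difference, and none for length. The features with the most counts or the largest change overall were added after their values were seen and carry no identifier. The comparison, the lists and the alternatives were chosen with earlier results of these data known. Alternatives concerned normalization, tool, filter, libraries in the fit, lane, length slope, replicate number and single libraries. Replicates were not duplicates of each other, since their counts differed by a chi-square of 12.5 to 67.1 per degree of freedom.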

Additional observations from a re-analysis of the deposited data

Results flagged for a closer look

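A pair of libraries, replicate 5 of either month, lay far from the others of their group in several measures. In the principal component analysis of the 10 hawthorn libraries, replicate 5 of 5 months had the highest score on the second component, 74.5. Replicate 5 of 3 months had the highest score of its month on the first component, 11.4, and the lowest on the third, -63.3. Replicate 5 of 5 months had the fewest features detected of its month, 15917, far below the other 4. For gene13519 the highest library of 5 months, replicate 5 with 19.1 CPM, was far above the other 4. Groups were tested in this way 34 times, and chance flags about 1 in 20 groups.

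The change between 5 and 3 months differed between hawthorn and apple by the test of the difference itself in 27 features. For gene10040 the hawthorn change exceeded the apple change by 2.12 log2 units, and for gene6 by 1.96. With lane as a term 0 features were called, while all 27 kept their direction and the differences were 2.25 for gene10040 and 2.23 for gene6. The 27 were chosen in the same libraries, so a kept direction is not a test.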

How the results depend on the processing

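The direction of all 345 features held in the fits with another normalization, with DESeq2, with lane or length slope as a term, with only the groups of the contrast, without the outlying libraries of 4 months and with thinned counts. These features were chosen in the same libraries, so a kept direction is largely part of the choice. The number called did not hold. In place of 345, hawthorn 5 against 3 months gave 662 features with DESeq2, 215 with no filter on low counts, 636 with only the groups of the contrast in the fit, 913 without 2 outlying libraries of 4 months, 540 with length slope as a term, 16 with lane as a term, 69 without both libraries of lane 2 and 46 at a minimum fold of 1.2. Leaving out 1 library gave 157 (replicate 1 of 5 months) to 374 (replicate 5 of 3 months). For the first 6 of these settings in the same order, apple gave 503, 167, 47, 716, 641 and 123 in place of 270, and 95 to 253 with 1 library left out. The host difference gave 106 with DESeq2, 205 without the outlying libraries, 82 with length slope, 0 with lane (1013 at an unadjusted p under 0.05) and 16 without replicate 5 of both hawthorn months, in place of 27, and 3 (without hawthorn replicate 1 of 5 months) to 45 with 1 library left out. The length test called 0 to 1 with 1 library left out. The cause of these moves was not tested.

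Replicate numbers did not pair the months: same-numbered libraries had correlations of -0.0606 to 0.0422 between their deviations, and 1 of 5 correlated best with its own number. The replicate block gave 347 features in hawthorn, 251 in apple and 26 for the host difference over all libraries. With only the groups of the contrast, the block gave 235 in hawthorn, 2 in apple and 0 for the host difference (1961 at an unadjusted p under 0.05), and it gave 1 for length.

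With 1 library left out, the difference in library totals was -5893880 to -4379370 and lost its call in 9 of 10 cases at an adjusted exact p of 0.0635. That value is the lowest that groups of this size allow when no other measure falls as low. The call could not be kept in those cases, so its loss does not show a weaker difference in totals. The other differences, 5 minus 3 months, ran from -719.9 to -238.7 features detected, from -2.94 to -1.72 percentage points for the share of the 10 most abundant features and from 0.0472 to 0.0825 for the length slope. Each of these 3 passed the threshold once, without replicate 5 of 3 months. With no filter on low counts the length slope differed by -0.0034 (adjusted exact p = 0.873), the reverse of the direction reported.

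Depth limits features below about 1 CPM, where few were called at any fold. With 5 pools per month, a p that misses the threshold does not show that a feature was unchanged. Features have no gene names here, so no pathway or cell type is described, and mapping was to another species' genome.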

Other observations

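Called features lay near each other in the order of identifier numbers more often than others. Of 439 tested features with an identifier number next to that of a called feature, 26 were called (5.92%, beside 2.49% of all tested). They made 13 adjacent pairs, of which 12 had the same direction. Whether adjacent numbers are neighbours in the genome is not stated, and reads that RSEM divides between similar neighbours were not tested. For the 27 features with a host difference, 43 tested features had a number next to theirs, and 0 of those 43 were called for it (beside 0.195% of all). Of the 27, 4 had a number under 130, beside 102 of the 13862 tested. The cut at 130 was not part of the planned comparisons, so this count is a description and not a test.

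Replicate 1 of 3 months held 13 features at least 4-fold above the highest of the other 9 hawthorn libraries, at a prior count of 2. Every other library of the 10 held 1 to 4 such features. No explanation was tested.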
